A study of Mus musculus with 6 samples.

Results

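Regulatory T cells (Treg) act on their neighbours partly through what they secrete, and 10 genes of such secreted products were followed here in thymic Treg: Il10, Ebi3, Il12a, Penk, Areg, Fgl2, Ifng, Il4, Il17a and Il2. They were taken by gene symbol from a deposited table of 32801 genes, and all 10 were found in it. Total RNA was sequenced from Treg sorted out of the thymus of mice aged 3 weeks, with 3 libraries from NOD mice, which develop autoimmune diabetes, and 3 from C57BL/6 (B6) mice. Cells of both strains were sorted as GFP-negative, CD4+CD8- and Thy1.1+; the labels name no further allele or treatment and do not say what GFP and Thy1.1 report, nor whether a library came from a single animal. The deposited values are taken to be each library's read counts, scaled by a size factor and rounded. They are called normalized counts below. What the p-values weigh is the spread among these libraries, which may be technical.

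The genes fall into 3 roles. IL-10 dampens antigen-presenting cells and T cells. EBI3 and the IL-12 p35 chain, the product of Il12a, pair to form IL-35, a suppressive cytokine described in mouse Treg; each chain also has other partners, p35 in IL-12 and EBI3 in IL-27. Penk encodes proenkephalin, the precursor of the opioid peptides called enkephalins. Areg encodes amphiregulin, an epidermal growth factor family ligand through which tissue Treg promote repair, and Fgl2 a fibrinogen-like protein that Treg secrete and that acts through inhibitory Fc receptors. Ifng, Il4, Il17a and Il2 encode the signature cytokines of helper T cells, and Foxp3, the Treg lineage factor, represses Il2 in particular.

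The start regions of 4 members are printed here because they show how differently the genes are built: Fgl2 and Areg, which stood below B6 on average in NOD next to Penk, Ifng, which stood above it, and Il2, one of the lowest. RefSeq windows on GRCm38.p6, the assembly that mm10 names, were found for 8 of the 10 members, but not for Penk or Il10. Each run below holds the 150 bases just before the RefSeq start site, 5′ to 3′ on the gene's strand. Capitals mark matches, on either strand, to the AP-1 motif TGANTCA, the cAMP response element TGACGTCA, the TATA motif TATAAA and the NFAT core GGAAAA. No 2 of these matches overlap within the runs.
Fgl2, chr5:21372523-21372672, plus strand: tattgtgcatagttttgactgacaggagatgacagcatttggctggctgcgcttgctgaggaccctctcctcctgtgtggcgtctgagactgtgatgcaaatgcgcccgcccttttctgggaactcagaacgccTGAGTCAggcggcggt
Areg, chr5:91139449-91139598, plus strand: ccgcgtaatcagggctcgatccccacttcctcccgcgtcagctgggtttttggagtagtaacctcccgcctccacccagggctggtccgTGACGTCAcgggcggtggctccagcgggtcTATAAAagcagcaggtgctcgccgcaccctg
Ifng, chr10:118440896-118441045, plus strand: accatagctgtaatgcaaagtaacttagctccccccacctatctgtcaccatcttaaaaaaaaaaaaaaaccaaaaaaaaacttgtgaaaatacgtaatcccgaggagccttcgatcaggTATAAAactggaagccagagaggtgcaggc
Il2, chr3:37125955-37126104, minus strand: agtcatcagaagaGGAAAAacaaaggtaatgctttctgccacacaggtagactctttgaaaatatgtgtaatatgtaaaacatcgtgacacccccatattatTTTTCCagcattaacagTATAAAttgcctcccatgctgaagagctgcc

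Areg, Ifng and Il2 each carry a TATA motif that begins 30 or 31 bases before the start site, as does Il17a, and 13.6% of all 32851 windows of 300 bases hold that motif anywhere. The cAMP response element of Areg begins 61 bases before the start, and 1.79% of windows hold one. Fgl2 has an AP-1 match 16 bases before the RefSeq start (7.81% of windows). Il2 has 2 NFAT cores, at 137 and 48 bases before its RefSeq start (23.4% of windows). The GENCODE M21 annotation begins Fgl2 at 21372642, inside its printed run and ahead of the AP-1 match, so that match lies within the GENCODE gene. Il2, on the minus strand, begins at 37125959 there, also inside its run. These matches are letters in the B6 reference, not measured binding, and the NOD sequence was not used here.

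Levels spanned more than 3 orders of magnitude among the members. Per kilobase of annotated exon, which allows levels of different genes to be compared, Penk was highest in both strains, with 1825 ± 774 normalized counts per kb in NOD against 3149 ± 107 for B6 (SD, 3 libraries each). Il10 followed (1093 ± 346 and 923 ± 190), then Fgl2 (571 ± 106 and 764 ± 4.21) and Areg (517 ± 116 and 761 ± 156). Ebi3 stood lower, at 123 ± 26.0 and 122 ± 2.79 per kb, and Ifng lower again, at 45.1 ± 13.8 and 26.0 ± 2.48. Il4 (13.0 ± 1.63 and 10.6 ± 3.26), Il17a (9.68 ± 7.70 and 9.11 ± 6.47), Il2 (9.32 ± 6.56 and 5.25 ± 2.31) and Il12a (0.980 ± 0.339 and 2.94 ± 3.11) closed the order, which was the same in both strains. The ranges of libraries overlapped between neighbours for Penk and Il10 in NOD, Il10 and Fgl2 in B6, Il2 and Il12a in B6, and in both strains for Fgl2 and Areg and for Il4, Il17a and Il2, so those neighbours are not separated beyond the spread of libraries.

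**Figure D1:**
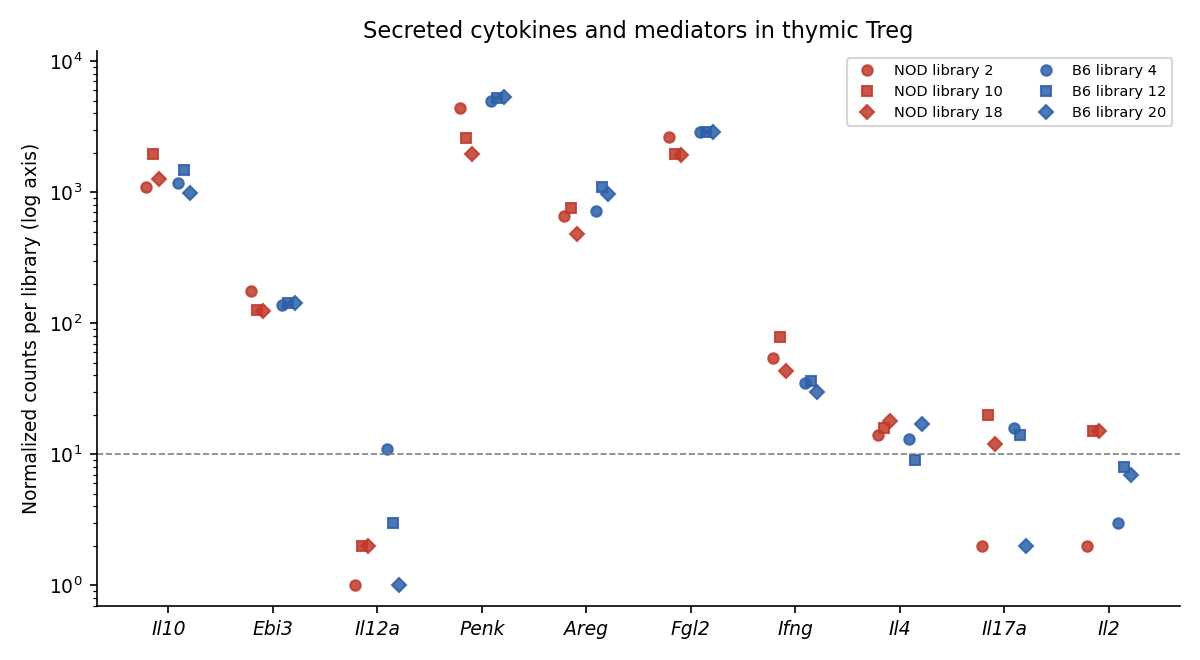
Normalized counts of each of the 10 members in every library, on a log axis; red symbols are NOD and blue symbols B6, and the dashed line marks 10 normalized counts. Penk, Fgl2, Il10 and Areg lie between 476 and 5289 in every library, while Il12a, Il2, Il17a and Il4 lie between 1 and 20.

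Of the 4 lowest members, none reached 10 normalized counts in every library. Il12a was below 10 in 5 of 6 libraries, Il2 in 4, Il17a in 2 and Il4 in 1, and the other 6 members were at 30 or more throughout. Genes were tested where at least 3 libraries held at least 10 normalized counts, which left 8 members in the fit and Il12a and Il2 outside it. A member that is high in a single strain can pass such a filter through that strain alone, though none of the 8 did so.

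Penk was the member that differed most clearly, and it was lower in NOD Treg. It stood at 4400, 2579 and 1968 normalized counts in NOD libraries 2, 10 and 18 and at 4951, 5198 and 5289 in B6 libraries 4, 12 and 20. All 3 NOD libraries lay below all 3 B6 libraries, the B6 values were close together, and NOD library 2 came near them. The NOD mean was 2982 ± 1265 and the B6 mean 5146 ± 175 (SD, n = 3 each), and Penk fell by 0.87 on the log2 scale of normalized count + 1 (SE 0.22, 95% interval -1.36 to -0.37, limma adjusted p = 0.0312). The authors' deposited table gives Penk a log2 fold change of -0.79 and an adjusted p of 0.0173. In bulk RNA, fewer cells of a type and less RNA per cell cannot be told apart, and this holds for every difference given here. The submitters name mm10, a B6 reference, for both strains, and what its use does to the NOD values was not tested.

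Penk was the only one of the 8 tested members called with limma, at an adjusted p below 0.05: 1 was lower, 0 were higher and 7 were not called. Over all 16442 genes tested, 5.30% were called lower, 4.59% higher and 9.89% in either direction, so 1 of 8 members is close to the background. Before adjustment 4 of the 8 had a p below 0.05, as did 20.3% of all tested genes. The median log2 difference of the 8 was 0.015 and that of all tested genes 0.014. The authors' deposited table has an adjusted p below 0.05 for 9.75% of the genes to which it gives one, and for 2 members, Penk and Fgl2.

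**Figure D2:**
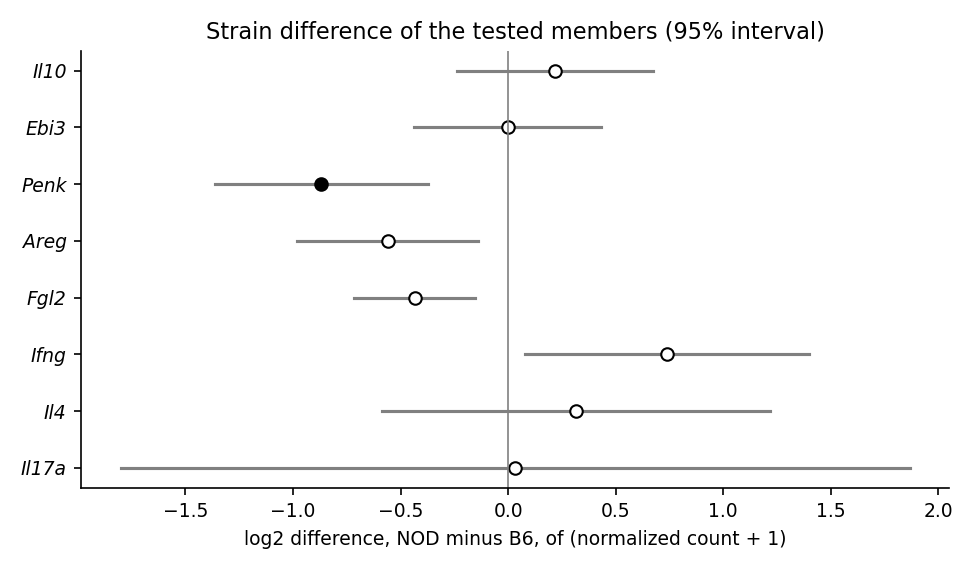
Log2 difference of normalized count + 1, NOD minus B6, for the 8 tested members, with the 95% interval from limma; the filled point is the member called at an adjusted p below 0.05. Penk alone is filled at -0.87, the intervals of Fgl2 and Areg also lie below 0, that of Ifng lies above 0, and that of Il17a is the widest (-1.80 to 1.87).

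The call of Penk rested on nearly every library. It was lost, with limma adjusted p of 0.0623 to 0.114, when NOD library 10 or 18, or any of the B6 libraries, was left out, although the log2 difference remained between -0.90 and -0.61. Without NOD library 2, the NOD library nearest to B6, the log2 difference was -1.19 and the adjusted p 0.000323.

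Fgl2 resembled Penk in its spread among libraries. It stood at 2628, 1950 and 1913 normalized counts in NOD libraries 2, 10 and 18, against 2874, 2900 and 2903 in B6 libraries 4, 12 and 20. Again all NOD libraries lay below all B6 libraries, which were almost equal, and NOD library 2 was the highest of its strain. The means were 2164 ± 403 and 2892 ± 16.0, a log2 difference of -0.43 ± 0.13 (SE) that did not pass the test (limma adjusted p = 0.0584). It did pass without NOD library 2 (-0.58, adjusted p = 0.0108). A fit chosen after seeing the data, in which NOD library 10 and B6 library 12 shared a covariate, gave an adjusted p of 0.0308, and the authors' deposited table has it at -0.42 with an adjusted p of 0.0455. Strain groups were separated in this direction for 2 of the 8 tested members, Penk and Fgl2, and for 11.9% of all tested genes. Fgl2 lies within the span of Ccdc146 on the opposite strand, and the 2 genes share no exon bases. Ccdc146 stood higher in NOD, at 73, 75 and 51 normalized counts in NOD libraries 2, 10 and 18. In B6 libraries 4, 12 and 20 it stood at 19, 25 and 10.

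Areg averaged lower in NOD, but the strains overlapped. It stood at 655, 755 and 476 normalized counts in NOD libraries 2, 10 and 18 and at 718, 1090 and 966 in B6 libraries 4, 12 and 20, so that B6 library 4 lay below NOD library 10. The means were 629 ± 141 and 925 ± 189, a log2 difference of -0.56 ± 0.19 (SE, 95% interval -0.98 to -0.14, limma adjusted p = 0.106). Without NOD library 10 the adjusted p was 0.0359 at a log2 difference of -0.71, and over the omission of each library it ran from 0.0359 to 0.374. The largest move came without NOD library 18, where the difference was -0.37. In the fit chosen after seeing the data, where B6 library 12 and NOD library 10 shared a covariate, the limma adjusted p was 0.0254. Areg was highest within its strain in each of those libraries, so that value adds no support.

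**Figure D3:**
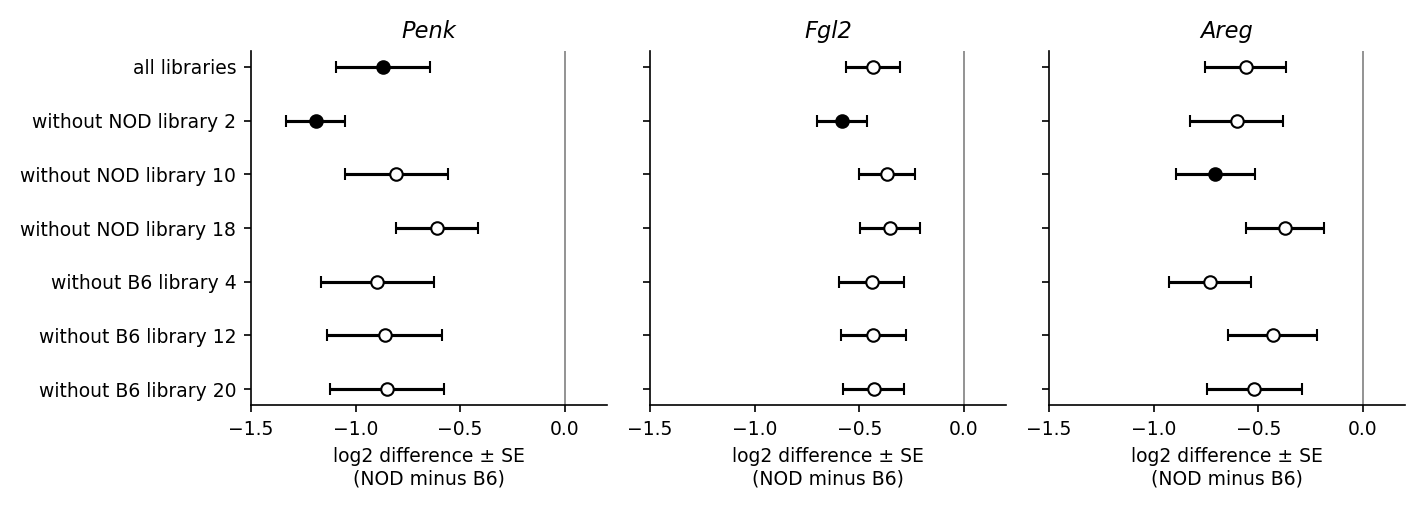
Log2 difference ± SE, NOD minus B6, of Penk, Fgl2 and Areg with all 6 libraries and with each library left out in turn; filled points are fits with a limma adjusted p below 0.05. Every difference lies below 0, and besides the fit of Penk with all libraries a single omission per gene is filled: NOD library 2 for Penk and Fgl2, NOD library 10 for Areg.

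Together the 10 members summed to 9029, 7489 and 5822 normalized counts in NOD libraries 2, 10 and 18 and to 9928, 10876 and 10340 in B6 libraries 4, 12 and 20. Penk made up 33.8% to 48.7% of that sum in NOD and 47.8% to 51.1% in B6.

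Il10 did not separate the strains. It stood at 1096, 1948 and 1251 normalized counts in NOD libraries 2, 10 and 18 and at 1170, 1475 and 983 in B6 libraries 4, 12 and 20. The groups overlapped widely, and NOD library 10 alone exceeded all the others. The means were 1432 ± 454 and 1209 ± 248, which differ by 0.22 on the log2 scale (95% interval -0.24 to 0.67, adjusted p with limma 0.652). Without NOD library 10 the difference was -0.03. The interval leaves room for a change of up to 0.67 on the log2 scale in NOD's favour, so equal levels were not shown.

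Il10, Areg and Ifng were each highest in NOD library 10 within NOD and in B6 library 12 within B6. That held for 3 of the 8 tested members (37.5%), for 18 of 76 other genes of the pathway lists (23.7%) and for 15.2% of 15643 tested genes without ties. For Ifng the lead within B6 was very small, at 36 in B6 library 12 against 35 in B6 library 4. Among those 18 were the transcription factor genes Irf4, Nfil3, Bhlhe40, Nfatc1 and Nfatc2, named here after their values were seen. Irf4, for instance, stood at 2381 in NOD library 10 and 2897 in B6 library 12, against 1240 to 1962 in the other 4. The labels used here do not say what those 2 libraries share, and its part in the levels of the members was not tested. The added covariate described in the closing section was chosen after these values were seen, so it cannot serve as such a test.

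Ebi3, the chain of IL-35 that was well detected, showed no detected difference between the strains. It stood at 177, 126 and 124 normalized counts in NOD libraries 2, 10 and 18 and at 137, 143 and 142 in B6 libraries 4, 12 and 20. The B6 values lay inside the NOD range. The means were 142 ± 30.0 and 141 ± 3.21, a log2 difference of 0.00 with a 95% interval of -0.44 to 0.43 (limma adjusted p = 0.996). An antisense transcript, Gm16712, shares 270 exon bases with Ebi3 and stood at 27 to 41; the strand setting of the counting is not given in the sources used here, so reads of the 2 cannot be told apart with certainty.

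Il12a, the partner chain, was barely detected. It stood at 1, 2 and 2 normalized counts in NOD libraries 2, 10 and 18 and at 11, 3 and 1 in B6 libraries 4, 12 and 20. B6 library 4 alone exceeded 3, and the strains overlapped at the low end. An exact two-sided permutation test gave p = 0.5, where 3 libraries against 3 cannot go below 0.1. The other subunit genes of the family were as low: Il12b stood at 0 to 11, Il23a at 0 to 5 and Il27 at 0 to 2, so Ebi3 was the only tested member of that 5-gene list.

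Ifng averaged higher in NOD at a low level. It stood at 54, 78 and 43 normalized counts in NOD libraries 2, 10 and 18 and at 35, 36 and 30 in B6 libraries 4, 12 and 20. All 3 NOD libraries lay above all 3 B6 libraries, as for 12.1% of all tested genes. The means were 58.3 ± 17.9 and 33.7 ± 3.21, and the log2 difference of 0.74 ± 0.30 (SE) did not pass the test (95% interval 0.08 to 1.40, limma adjusted p = 0.188). It did not pass with any library left out either (adjusted p of 0.167 to 0.386). Gm49751, an unclassified transcript on the same strand, shares 336 exon bases with Ifng and was not analysed here.

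**Figure D4:**
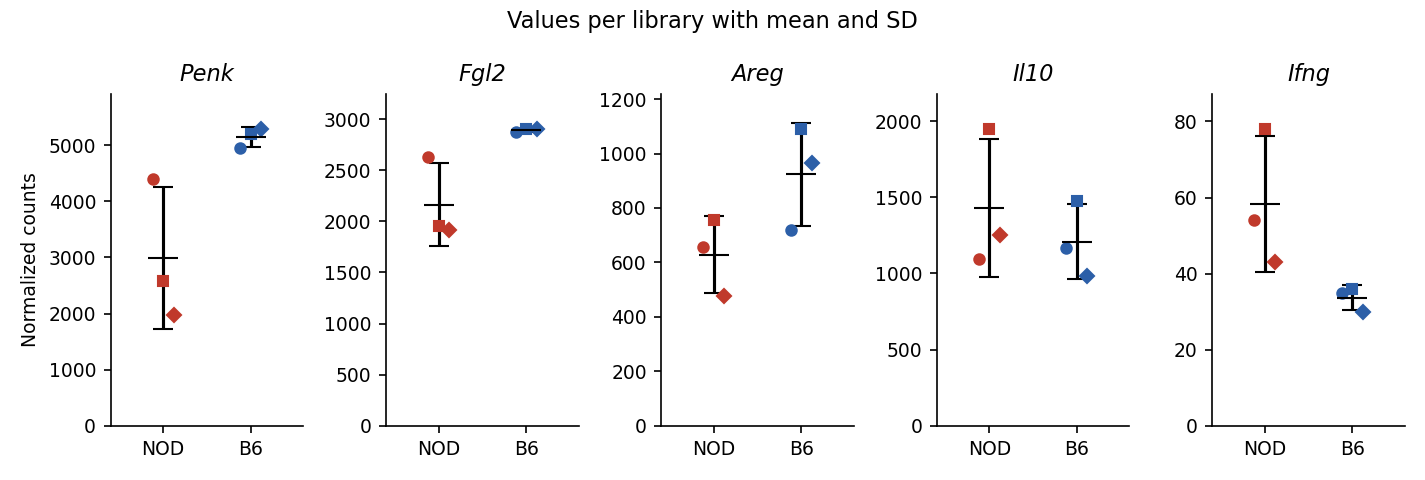
Normalized counts of Penk, Fgl2, Areg, Il10 and Ifng in each NOD library (red) and B6 library (blue), with the mean and SD of each strain in black; circles are NOD library 2 and B6 library 4, squares NOD library 10 and B6 library 12, diamonds NOD library 18 and B6 library 20. The strains do not overlap for Penk, Fgl2 and Ifng and do overlap for Areg and Il10, and the SD is larger in NOD than in B6 for every gene shown but Areg.

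The remaining helper cytokine genes were near the limit of what these libraries can show. Il4 stood at 14, 16 and 18 normalized counts in NOD libraries 2, 10 and 18 and at 13, 9 and 17 in B6 libraries 4, 12 and 20, and the strains overlapped (log2 difference 0.31 ± 0.41, SE, limma adjusted p = 0.763). Il17a stood at 2, 20 and 12 in NOD and at 16, 14 and 2 in B6 in the same order of libraries, a spread within each strain far larger than the difference of 0.03 ± 0.83 (adjusted p = 0.99). Il2 stood at 2, 15 and 15 in NOD and 3, 8 and 7 in B6, and the exact two-sided permutation test gave p = 0.6. For these genes a difference between the strains was not detectable at this depth, which is not to say that it is absent. Adad1, on the opposite strand, overlaps the span of Il2 without sharing exon bases and stood at 1 to 11.

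The members lie on 7 chromosomes in GENCODE M21 (GRCm38). Il10 (chromosome 1, 131019845 to 131024974) and Il17a (chromosome 1, 20730905 to 20734496) share chromosome 1 at a distance, and Il2 (chromosome 3, 37120523 to 37125959) and Il12a (chromosome 3, 68690644 to 68698547) share chromosome 3. Areg (chromosome 5, 91139599 to 91148432) and Fgl2 (chromosome 5, 21372642 to 21378374) share chromosome 5. Penk lies on chromosome 4 (4133531 to 4138819), Ifng on chromosome 10 (118441046 to 118445892), Il4 on chromosome 11 (53602982 to 53618669) and Ebi3 on chromosome 17 (55952640 to 55957022). All are annotated as protein-coding genes. Il2 lies in the mouse diabetes susceptibility region known as Idd3, where NOD and B6 carry different alleles.

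The genes whose profile over the 6 libraries was most like that of Penk were sought by the root-mean-square distance between log2 profiles, each centred on its own mean. The nearest were Smpd3, a neutral sphingomyelinase gene (distance 0.0827), Klrc1, which encodes the inhibitory receptor NKG2A (0.0925), and Pam, which encodes the enzyme that amidates peptide hormones at their end (0.141). Smpd3 stood at 4 to 12 normalized counts only. Klrc1 stood at 43, 22 and 20 in NOD libraries 2, 10 and 18 and at 53, 52 and 52 in B6 libraries 4, 12 and 20 (limma adjusted p = 0.123). Pam stood at 76, 45 and 39 in NOD and at 94, 121 and 107 in B6, and was called lower (log2 difference -1.05 ± 0.28, adjusted p = 0.0372). All tested genes were ranked, each on 6 values, and the likeness says nothing of shared function or control. The profile of Penk holds its strain difference, so genes near it are lower in NOD by selection. The call of Pam is therefore not an independent result.

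The peptides of Penk need processing before they signal. Of 9 opioid precursor and processing genes listed, 5 were tested, and Penk was the only one called, beside 9.89% of all tested genes. Pcsk1, a prohormone convertase, stood at 291, 107 and 102 normalized counts in NOD libraries 2, 10 and 18 and at 184, 329 and 161 in B6 libraries 4, 12 and 20, with overlap between strains (limma adjusted p = 0.515). Cpe, which trims the basic residues left by the convertases, averaged 97.7 ± 28.5 for NOD and 118 ± 8.74 for B6 (adjusted p = 0.562). Of the opioid receptor genes, Oprm1 stood at 17 to 37 and Oprd1 at 0 to 2, and Oprk1 was not analysed here.

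Amphiregulin is made as a membrane precursor and is released by the protease ADAM17. Of 5 shedding and processing genes, Adam17 rose in NOD, standing at 3549, 3354 and 2987 normalized counts in NOD libraries 2, 10 and 18 and at 2126, 2052 and 2330 in B6 libraries 4, 12 and 20. The strains did not overlap (log2 difference 0.60 ± 0.11, SE, limma adjusted p = 0.00354), and the call was kept with each library left out. The other 4, Adam10, Furin, Rhbdf1 and Rhbdf2, were not called, beside 9.89% of all tested genes called in either direction. Of 7 genes of the ligand family, Areg was the only abundant one: Tgfa stood at 15 to 50, Egf at 10 to 22, Hbegf at 6 to 21, and Btc, Ereg and Epgn at 0 or 1.

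Most receptor chains for the mediators were not called. Of 21 listed, 16 were tested, 2 rose, 1 fell and 13 were not called (9.89% of all tested genes were called), with a median log2 difference of 0.14 against 0.014 over all tested genes. Il12rb2, which pairs with gp130 for IL-35 and with Il12rb1 for IL-12, stood at 202, 158 and 224 normalized counts in NOD libraries 2, 10 and 18 and at 56, 54 and 39 in B6 libraries 4, 12 and 20 (log2 difference 1.95 ± 0.23, SE, limma adjusted p = 0.000218). Il27ra, a receptor chain for IL-27, rose from 1673 ± 103 in B6 to 2214 ± 165 in NOD (adjusted p = 0.0333), a call lost with any library left out (0.0556 to 0.122). Il2rb, the signalling beta chain for IL-2, fell from 18511 ± 1121 to 13513 ± 1349 (adjusted p = 0.0236), and it was no longer called without any of NOD libraries 2 and 18 and B6 libraries 4 and 12 (0.0668 to 0.118).

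For IL-10, Il10ra averaged 894 ± 114 normalized counts for NOD and 1024 ± 41.0 for B6 and Il10rb at 537 ± 56.4 and 682 ± 89.8, neither called (limma adjusted p of 0.422 and 0.188). For interferon gamma, Ifngr1 stood at 21970 ± 1975 and 20274 ± 1147 and Ifngr2 at 859 ± 100 and 673 ± 76.8 (adjusted p of 0.668 and 0.156). Il4ra (adjusted p = 0.339), Il17ra (0.395), Il6st, which encodes gp130 (0.46), and the IL-2 receptor genes Il2ra (0.769) and Il2rg (0.273) were not called. Il12rb1, Il13ra1, Fcgr3 and Oprm1 were not called either. The genes Egfr, which encodes the receptor of amphiregulin, and Fcgr2b, that of the inhibitory Fc receptor, stood at 0 to 5 and 0 to 16, and Il17rc, a second chain for IL-17A, stood at 2 to 15; none of the 3 was tested.

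**Figure D5:**
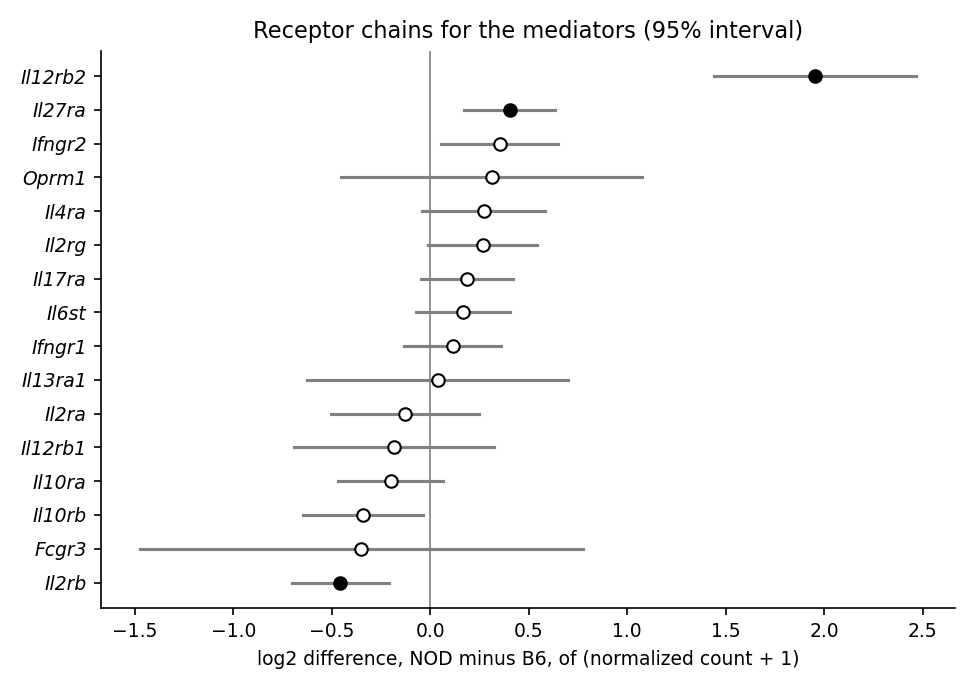
Log2 difference of normalized count + 1, NOD minus B6, with 95% intervals from limma, for the 16 tested receptor chains; filled points are called at an adjusted p below 0.05. Il12rb2 (1.95) and Il27ra (0.40) lie to the right, Il2rb (-0.46) to the left, and the other 13 points are open.

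Of 26 listed transcription factor genes known to act on these cytokine genes, 25 were tested, 1 rose and 2 fell, with a median log2 difference of -0.02. That is 3 of 25 called, beside 9.89% of all tested genes. Ahr, the aryl hydrocarbon receptor gene, rose from 1109 ± 96.8 in B6 to 1909 ± 517 normalized counts in NOD (log2 difference 0.75 ± 0.17, SE, limma adjusted p = 0.0133), which was no longer called without B6 library 4 or 20 (0.054 and 0.0558). Stat3, which relays IL-6, IL-10 and IL-27 signals, fell from 24742 ± 590 to 16188 ± 1930 (-0.62 ± 0.12, adjusted p = 0.00516). Rel, the NF-kB subunit c-Rel, fell from 7731 ± 1029 to 5712 ± 439 (adjusted p = 0.0456), a call lost with any library but B6 library 20 left out (0.0621 to 0.19). Prdm1, the gene of Blimp-1, a regulator of Il10, averaged 560 ± 140 for NOD and 547 ± 187 for B6 (adjusted p = 0.93) and Maf at 1996 ± 428 and 1866 ± 368 (0.843). Tbx21, the gene of T-bet, which drives Ifng, averaged 148 ± 15.4 for NOD and 83.0 ± 32.2 for B6 without being called (adjusted p = 0.0675), nor was Gata3, a regulator of Il4 (0.339).

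Cytokine messages are short-lived. Of 9 genes acting on their stability, 2 rose in NOD and 7 were not called, beside 4.59% of all tested genes called higher. Zc3h12d, of the Regnase family of RNA-degrading proteins, rose from 3274 ± 206 in B6 to 5031 ± 450 normalized counts in NOD (log2 difference 0.62 ± 0.11, SE, limma adjusted p = 0.00276). Arid5a, which protects such messages, rose from 2276 ± 364 to 3345 ± 635 (adjusted p = 0.0486), and that call was lost with any library but NOD library 2 left out (0.0643 to 0.146) and on rescaling by TMM or median-of-ratios factors (0.0549 and 0.0557). Zfp36, Zfp36l1, Zfp36l2, Zc3h12a, Rc3h1, Rc3h2 and Elavl1 were not called.

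Among 36 further cytokine genes, 20 were tested, 1 rose and 2 fell, with a median log2 difference of -0.04. Over all tested genes, 4.59% were called higher and 5.30% lower. Il6 and Il1b, genes of inflammatory cytokines, passed the filter on low values through B6 alone, as no NOD library reached 10 normalized counts, so a difference between the strains was built into their being tested. Il6 stood at 0, 1 and 1 normalized counts in NOD libraries 2, 10 and 18 and at 73, 125 and 281 in B6 libraries 4, 12 and 20 (limma adjusted p = 1.68e-05). Il1b stood at 7, 1 and 6 in NOD and at 32, 33 and 205 in B6 (adjusted p = 0.00799). Both calls were kept with each library left out, but in each refit the 2 genes again passed the filter through B6 alone. B6 library 20 was the highest for both genes. Tnfsf11, the gene of RANK ligand, rose from 312 ± 62.6 in B6 to 521 ± 112 in NOD (adjusted p = 0.04), a call lost with any library but NOD library 2 left out (0.0566 to 0.177). Tgfb1, the gene of the main TGF-beta of T cells, stood at 982 ± 199 and 1084 ± 137 and was not called (limma adjusted p = 0.688).

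Cells other than Treg can also make several of these products, and markers of such cells were detected. Most were low, but Cd74 stood at 315 to 792 normalized counts, H2-Eb1 at 121 to 345 and Epcam at 149 to 285. Epcam was listed as a thymic epithelial marker, but the others of that list were low. Foxn1 stood at 0 to 8, Krt5 at 2 to 9 and Krt8 at 9 to 23. The calls given below stand beside 9.89% of all tested genes called in either direction. Of 7 macrophage markers, 3 were tested and none was called with limma (Lyz2 alone had an unadjusted p below 0.05, at 0.00747). The list summed to 91 to 120 normalized counts in NOD and 145 to 168 in B6, without overlap. Lyz2 stood at 3, 3 and 15 in NOD against 38, 13 and 33 in B6 and Adgre1, the F4/80 gene, at 0, 0 and 2 against 9, 9 and 22, while C1qa, C1qb and Fcgr1 stayed at 8 or less. Cd68, the most abundant of the list, overlapped between the strains, at 66, 91 and 80 against 93, 102 and 74. So did Csf1r, at 17, 15 and 19 against 14, 19 and 25. Fcgr1 averaged higher in NOD, at 4, 0 and 2 against 0, 0 and 1. Of 8 dendritic cell markers, 5 were tested and 2 fell (Cd74 and H2-Aa), and the list summed to 754 to 824 in NOD and 1114 to 1401 in B6; H2-Aa was no longer called without any one library but B6 library 12 (limma adjusted p of 0.0516 to 0.183). H2-Eb1 of the same list stood the other way, at 212, 345 and 195 in NOD against 146, 121 and 199 in B6, with overlap (log2 difference 0.67, limma adjusted p = 0.143). H2-Ab1 stood at 42, 54 and 57 against 93, 77 and 110 without being called (limma adjusted p = 0.0539). Cd74 and the H2 genes held most of the list's sum. The rest of the list overlapped between the strains. Xcr1 stood at 99, 69 and 56 in NOD against 94, 84 and 92 in B6. Flt3 at 4 to 9, Siglech at 1 to 8 and Itgax at 2 to 16 were not tested. Natural killer and innate-like markers summed to 77 to 153 in NOD and 75 to 132 in B6, with Gzma higher and Tyrobp lower in NOD among 3 tested. The call of Gzma was lost without NOD library 2 or 18 or B6 library 12 (limma adjusted p of 0.0505 to 0.0791), and that of Tyrobp with any library but NOD library 18 left out (0.056 to 0.134). B cell markers (136 to 196 and 144 to 193), immature or CD8 thymocyte markers (238 to 320 and 250 to 304) and thymic epithelial markers (167 to 239 and 221 to 314) had overlapping sums. Of the 4 thymocyte markers tested, 2 were called in opposite directions, although the cells were sorted as CD8-. Cd8a, a chain of CD8, stood at 124, 35 and 100 in NOD against 10, 17 and 18 in B6 (log2 difference 2.31, limma adjusted p = 0.00745; 0.0509 without NOD library 18). Cd8b1, the other CD8 chain, overlapped between the strains, at 117, 135 and 134 in NOD against 105, 99 and 131 in B6 (0.21, limma adjusted p = 0.649). Rag1, a recombinase gene of immature thymocytes, stood at 49, 55 and 67 against 155, 100 and 111 (-1.07, adjusted p = 0.0169). The call of Rag1 was lost without B6 library 4 or NOD library 2 (0.0986 and 0.0661). Dntt stood at 8, 11 and 17 against 34, 25 and 25 without being called (limma adjusted p = 0.0947). No marker was at 0 in all libraries. The part of such cells in the values of Il6, Il1b and the members was not tested.

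Defining genes of the sorted cells were detected in every library, with Foxp3 at 1701 to 2446 normalized counts, Cd4 at 5825 to 7952 and Il2ra at 3763 to 5761. Of the 8 listed, 2 were called and both were higher in NOD. Thy1 stood at 5754 ± 605 in NOD against 2725 ± 159 in B6 (log2 difference 1.07, limma adjusted p = 6.23e-05). That value is for the whole gene and does not single out the Thy1.1 used for sorting. Cd3e stood at 1916 ± 279 against 1115 ± 81.5 (0.77, limma adjusted p = 0.00222). Both calls were kept with each library left out. Over all tested genes, 4.59% were called higher. Values summed to between 16097369 and 17625903 per library. Sequencing depth, estimated from the gaps that rounding leaves among low values, was lowest for B6 library 20 (15500000 reads) and highest for NOD library 18 (21600000), so that 1 normalized count stood for 0.88 to 1.24 reads.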

How the data were processed

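RNA of thymic Treg was sequenced by the submitters from total RNA libraries (TruSeq Standard Total RNA LT, per the labels' protocols). Trimmomatic, STAR, DESeq2 and mm10 are named in the submitters' processing notes; the sources used here do not name the counter, the annotation or the strand setting. A single table was deposited. Its 6 sample columns are headed norm and hold normalized counts. That these are counts divided by size factors and rounded was inferred from the values, not read from the headers. The authors deposited beside them a log2 fold change, its standard error, a mean and a test statistic as further scores, and the raw p-value of DESeq2 with its adjusted form. Columns were matched to strain by name; 0 sample columns were left unused. Their numbers are not the labels' replicate numbers.

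The values were fitted with limma 3.58.1 (R 4.3.3) across all genes whose normalized counts reached 10 in 3 or more libraries, after log2(value + 1), using a strain term and a variance trend. Tests are two-sided with Benjamini-Hochberg adjustment over 16442 genes, called below 0.05. For genes of low value, the log2 difference understates the change. The count test planned for raw counts was not run, since the rounded values did not give back whole reads for every gene. The fit and the depth estimate were tested on simulated data. Members outside the filter had an exact permutation test.

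The members, gene lists and tests were chosen with earlier results of these data known. The lists' called genes (at most 4 in each direction) and all receptors are named by rule, as are the 3 genes nearest to a called member; other names were chosen after their values were seen. Alternatives were other scaling, pseudocounts, filters and variance models, array weights, each library left out, and a covariate and a block added later.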

Additional observations from a re-analysis of the deposited data

How the results depend on the processing

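With 3 libraries per strain, calls near the threshold moved with the choice of libraries and variance model. Of 131 refits of single members, 107 kept direction and side of the threshold; the cause of the other changes was not tested. The number of members lower in NOD was 1 as reported, 0 without a trend (Penk at adjusted p = 0.176), 3 with array weights, 3 with the covariate for NOD library 10 and B6 library 12 (chosen after seeing the data; the members were Penk, Fgl2 and Areg, at 0.0188, 0.0308 and 0.0254), and 0 to 2 with a library left out. Pathway genes higher in NOD numbered 7, against 3 without a trend, 11 with array weights and 3 to 6 with a library left out; those lower numbered 5, against 2, 10 and 3 to 7. Over all genes, 755 higher and 871 lower became 1247 and 1434 with array weights, and 490 to 781 and 569 to 1011 with a library left out (490 without NOD library 18, 569 without B6 library 4). Members that were not called changed sign: Il10 without NOD library 10 (-0.0265, range to 0.388), Ebi3 with array weights (0.0412; -0.169 to 0.0861 with a library left out) and Il17a likewise (-0.71; -0.77 to 0.85). Rescaling, pseudocounts of 0.5 and 5 and both other filters changed no member's call. The columns do not carry the labels' replicate numbers, so the planned block could not be fitted. A replicate block on neighbouring column numbers (2 and 4, 10 and 12, 18 and 20), chosen after seeing the data, gave 3 members lower (Penk, Fgl2 and Areg at 0.0045, 0.0214 and 0.03), 9 pathway genes higher and 7 lower, and 955 of all genes higher and 1072 lower. Deviations from the strain means correlated at 0.007, 0.18 and 0.127 over 16442 genes within those pairs; not every pair passed 0.1, NOD library 2 was nearest to B6 library 20 (0.098), and the numbers are not taken to pair the libraries. The planned count test was not run, since the columns are not raw counts. Il4, Il17a, Il2 and Il12a are limited by depth.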
